A study of Tupaia belangeri chinensis with 12 samples.

Results

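Reelin signalling and the cells that make reelin were followed through 4 layers of the fetal cortex by 8 genes: RELN, which encodes the secreted protein reelin; its receptors LRP8 (also called ApoER2) and VLDLR; DAB1, the adaptor inside the receiving cell; and CALB2, TP73, NDNF and LHX5, which are used as markers of Cajal-Retzius cells. The genes were found in the tables by symbol, and each symbol matched 1 entry among the 81414 gene IDs used (26566 symbols). The animal is the Chinese tree shrew, Tupaia belangeri chinensis, and all 12 libraries are labelled as embryonic day 37. The 4 layers were cut by laser from Nissl-stained frozen sections: the ventricular zone (VZ), where radial glia line the ventricle, the inner and outer subventricular zones (ISVZ and OSVZ), which hold further progenitors, and the cortical plate (CP), in which neurons come to rest. Poly(A) RNA was sequenced in 3 libraries per layer, named VZ 1 to CP 3. The labels name no strain, genotype or treatment, do not say which embryo a library came from, and do not mention the marginal zone, the thin layer over the plate in which Cajal-Retzius cells lie. The p-values below therefore measure the spread between these libraries, which may be technical or may share an animal.

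Reelin is a large secreted glycoprotein that in the developing cortex is released mainly by Cajal-Retzius cells of the marginal zone. It binds LRP8 and VLDLR on migrating neurons and radial glia, the receptors cluster, and Src-family kinases phosphorylate DAB1, which then recruits Crk proteins and phosphoinositide 3-kinase before it is ubiquitinated and degraded. The pathway is known for setting the order in which neurons stack up in the plate. Cajal-Retzius cells arise at the borders of the pallium, among them the cortical hem, and reach the surface of the cortex by tangential migration; calretinin (CALB2) and reelin are also made by some inhibitory interneurons.

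Values are FPKM, which is corrected for gene length and depth, scaled by 1 factor per library. Summed FPKM ranged from 244696 to 276661 per library, and 12159 to 13420 genes reached 1 FPKM. Read counts were not used here; a relative depth derived from the deposited confidence bounds was highest in OSVZ 3, at 1.68, against 0.688 to 1.22 in the other 11 libraries. Layer markers followed the labels: the summed level of 5 radial glia markers was 441 to 540 in VZ and 15.2 to 22.0 in CP, and that of 5 cortical plate neuron markers was 54.6 to 195 in VZ and 963 to 1061 in CP.

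Among the libraries, OSVZ 3 and VZ 2 stood apart, and both touch the genes described here. In OSVZ 3, 60 genes were at 1 or more and at least 4-fold above every other library, 50 of them with a symbol, and NDNF and LHX5 were among these. In VZ 2 the count was 107 (71 with a symbol), and in the other 10 libraries it was 11 to 43. Of 11 Cajal-Retzius markers, 9 had their highest value in OSVZ 3 (RELN, TP73, LHX1, LHX5, CALB2, NDNF, EBF3, NHLH2 and CACNA2D2). The summed level of all 11 was 96.8 there and 7.54 to 23.8 in the other 11 libraries, but 5 of them (RELN, CALB2, TP73, NDNF and LHX5) are genes described here. The 6 markers that are not summed to 22.0 in OSVZ 3 and to 2.59 to 11.8 elsewhere. Of that 22.0, 12.7 was CACNA2D2, which was at 1.78 to 3.10 in every other library. NHLH2 was at 4.65 in OSVZ 3, EBF1 at 2.72, LHX1 at 1.03 and EBF3 at 0.799. EBF1 and EBF2 were highest in ISVZ 3. Of 11 genes of the hem and other source regions, 8 were highest in VZ 2 (WNT3A, WNT2B, WNT5A, LMX1A, RSPO2, BMP4, BMP7 and DMRT3), with a sum of 38.3 against 3.28 to 16.2 elsewhere. TTR, the transthyretin that choroid plexus makes in quantity, was at 2514 in VZ 2, and at 529 or below in the other libraries.

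Other genes that stood apart in OSVZ 3 were chosen after their values were seen. LHX8, a transcription factor of basal forebrain neurons, was at 23.3 there and at most 0.513 elsewhere. TAC3, a neuropeptide gene, was at 11.9 against at most 0.133, and GBX1 at 4.44 against at most 0.250. The hypothalamic genes OTP and OXT were at 1.53 and 1.69 there, and at most 0.0416 and 0.0392 elsewhere. SLC32A1, the vesicular transporter of GABA, was at 42.3 in OSVZ 3 and at 1.30 to 17.2 in the others. Of 10 interneuron markers SLC32A1 alone was highest in OSVZ 3, and their sum there was 175, against 280 to 420 in VZ. The part of these transcripts in the RELN, CALB2, TP73, NDNF and LHX5 values of OSVZ 3 was not tested, so each result that rests on that library is given with and without it.

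**Figure D1:**
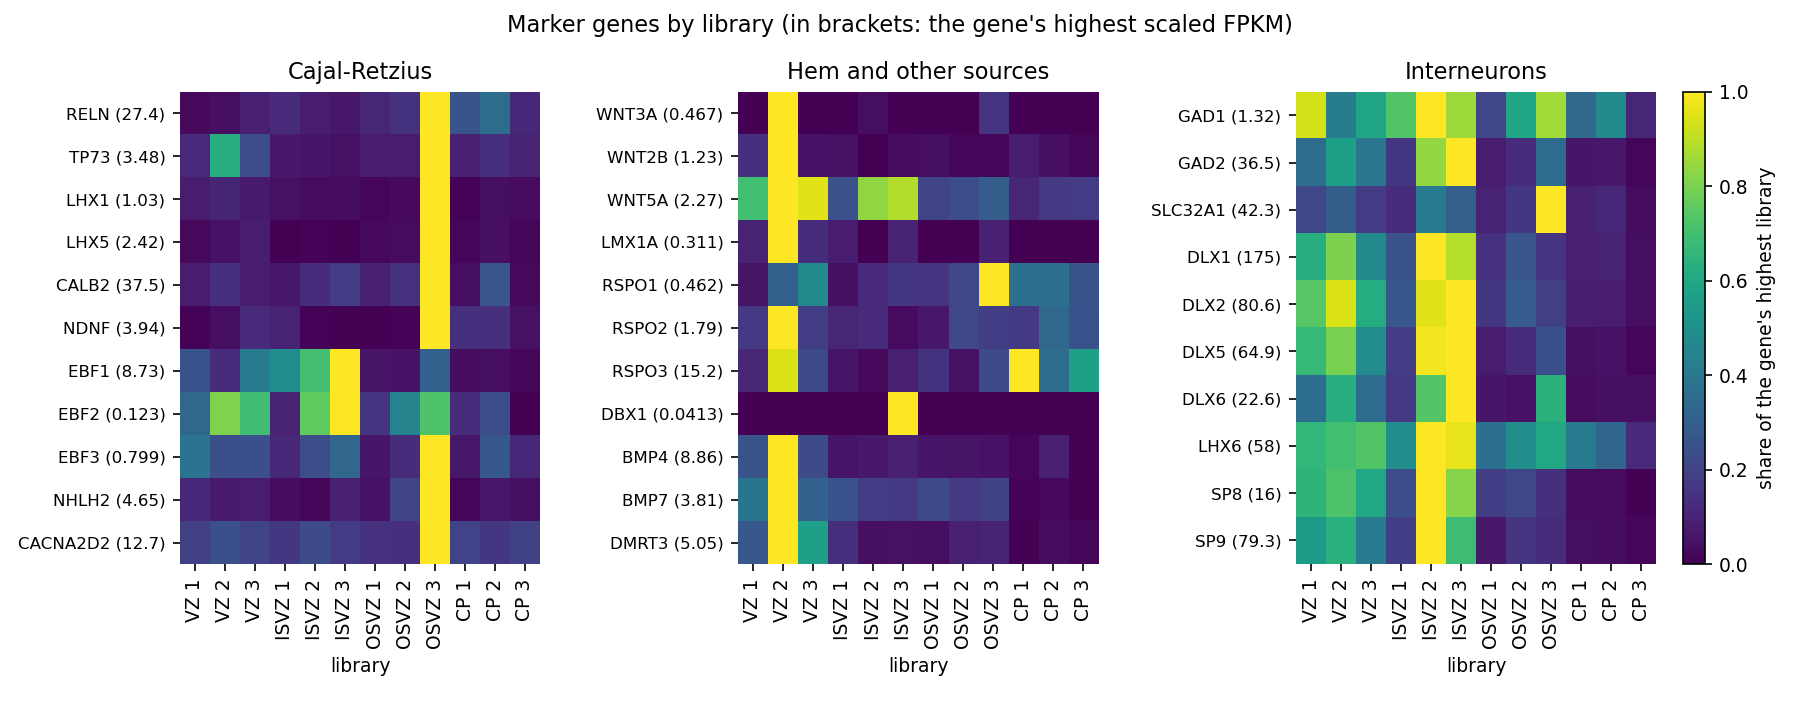
Each row is a gene and each column a library; colour gives the level as a share of the gene's own highest library, whose scaled FPKM stands in brackets. OSVZ 3 holds the highest value of 9 of 11 Cajal-Retzius markers, VZ 2 that of 8 of 11 source-region genes, and the 10 interneuron genes shown are mostly highest in ISVZ 2 and ISVZ 3.

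The 8 genes fell into 3 patterns over the layers. DAB1 and VLDLR were higher in CP than in each germinal layer, LRP8 was higher in ISVZ and OSVZ than in CP, and the Cajal-Retzius genes were low in most libraries and highest in 1 OSVZ library. Of the 8, RELN, LRP8, VLDLR, DAB1 and CALB2 reached 1 in at least 3 libraries and entered the fit over 14101 genes. TP73 reached 1 in 2 libraries, and NDNF and LHX5 in 1, so these were tested singly. In the test over the 4 layers, DAB1, VLDLR and LRP8 passed at an adjusted p below 0.05, that is 3 of the 5 in the fit, where 51.8% of all genes tested passed.

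RELN was lowest in VZ and higher in CP, but the call lay close to the threshold and depended on the libraries and settings used. The entry (TSDBGID.22789) spans positions 80705954 to 81476920 of chromosome 6 in the coordinates of the deposited tables. RELN was at 0.659, 1.15 and 2.40 in VZ, at 3.34, 2.23 and 1.76 in ISVZ, at 2.90, 3.99 and 27.4 in OSVZ, and at 7.14, 9.72 and 3.19 in CP. The VZ libraries all lay below the CP libraries, whereas ISVZ overlapped both, and OSVZ 3 alone exceeded every CP library, by 2.82-fold over the next highest library. The order of the layer means was VZ 1.40 ± 0.900, ISVZ 2.44 ± 0.814, CP 6.69 ± 3.29 and OSVZ 11.4 ± 13.8 (SD, n = 3), and without OSVZ 3 the OSVZ mean was 3.45 ± 0.769 (n = 2), below that of CP.

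On the log2(scaled FPKM + 1) scale, which understates changes of low values, RELN was higher in CP than in VZ by 1.64 ± 0.63 (SE; limma, adjusted p = 0.0473), a ratio of means of 4.77. That call was kept in 10 of 22 alternative analyses, with adjusted p from 0.0027 to 0.156. It was lost, for example, without VZ 1 (0.135), without VZ 2 (0.103), without CP 1 (0.109) and without CP 2 (0.147), and its adjusted p was 0.0027 without OSVZ 3. OSVZ against VZ gave 1.84 ± 0.63 (adjusted p = 0.0502), and 0.94 ± 0.40 without OSVZ 3 (adjusted p = 0.117). CP against ISVZ gave 1.08 ± 0.63 (adjusted p = 0.185), and the same 1.08 with an SE of 0.35 passed without OSVZ 3 (adjusted p = 0.0285). CP against OSVZ turned from -0.20 to 0.70 without OSVZ 3, and neither value passed (adjusted p = 0.84 and 0.207). Neighbours in the order from VZ to ISVZ and from ISVZ to OSVZ did not differ beyond their spread (adjusted p = 0.662 and 0.292).

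Of the transcription factors that define Cajal-Retzius cells, TP73 was at 0.315 to 0.486 in CP, low but above 0, LHX5 at 0.0313 to 0.0985 and LHX1 at 0.0103 to 0.0391. The 6 Cajal-Retzius markers other than the genes described here (LHX1, EBF1, EBF2, EBF3, NHLH2 and CACNA2D2) summed to 2.89 to 3.01 in CP and 4.93 to 6.96 in VZ. CACNA2D2 alone was at 2.00 to 2.58 in CP and 2.40 to 3.10 in VZ. EBF1, whose highest layer was ISVZ, was at 0.154 to 0.313 in CP and 1.10 to 3.63 in VZ. Interneurons are another known source of reelin, and their summed list of 10 markers was lower in CP (22.4 to 60.5) than in VZ (280 to 420), with 141.7 to 535 in ISVZ and 81.2 to 175 in OSVZ. Within CP, CP 3 had the lowest RELN (3.19), the lowest CALB2 (0.883) and the lowest interneuron sum (22.4, against 57.9 and 60.5 in CP 2 and CP 1). It also had the lowest NDNF (0.170) and the lowest sum of 6 meningeal markers (14.9, against 21.5 and 16.7 in CP 2 and CP 1). TP73 and LHX5 were lowest in CP 1, at 0.315 and 0.0313. The sum of the 6 other Cajal-Retzius markers was lowest in CP 2, at 2.89. The part of any of these cell types in the RELN difference was not tested. In bulk tissue, fewer cells of a type and less RNA per cell cannot be told apart. Within the RELN span lie ORC5, a replication origin gene, at up to 3.60 with a mean of 2.89, and SERBP1li4, which reached 1.61. That ORC5 mean lay above the VZ values of RELN (0.659 to 2.40). The use of strand in counting is not given in the sources used here. Reads of RELN and of these entries may therefore not have been told apart, and the low RELN values are uncertain to that extent.

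**Figure D2:**
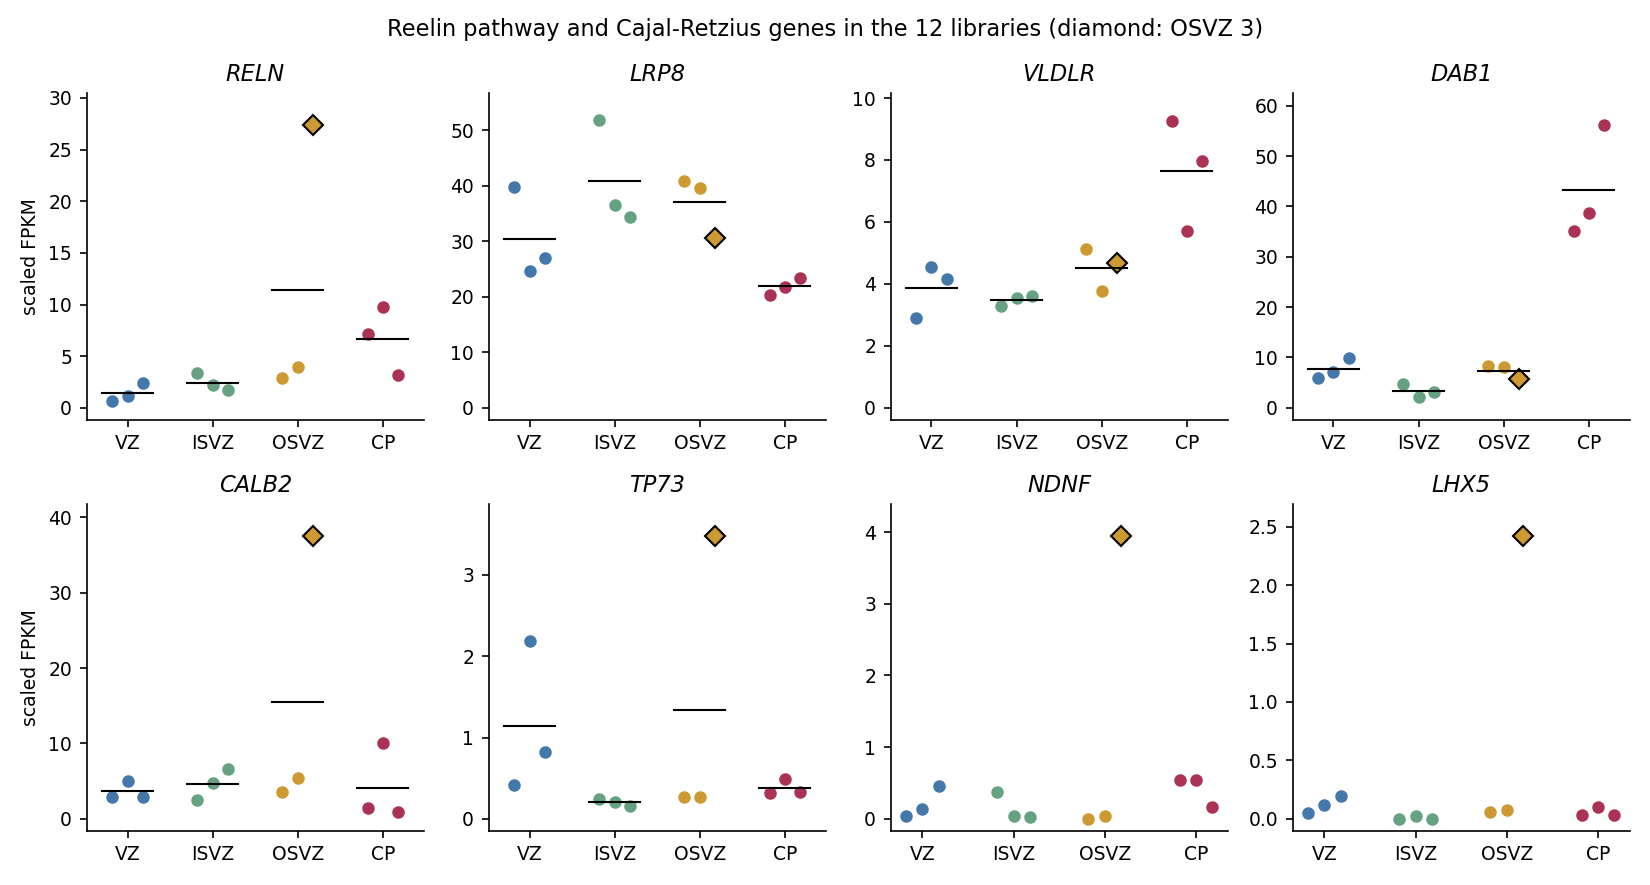
Scaled FPKM of each gene in each of the 12 libraries, by layer; each panel has its own linear axis that includes 0, horizontal bars are layer means (left out for NDNF and LHX5, which are listed at 0 in some libraries), and the diamond is OSVZ 3. DAB1 and VLDLR are highest in the 3 CP libraries, LRP8 is lowest there, and RELN, CALB2, TP73, NDNF and LHX5 are highest in OSVZ 3.

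The receptors went opposite ways between the subventricular zones and the plate. LRP8, the receptor known for its role in the migration of later-born neurons, was at 39.7, 24.6 and 27.0 in VZ, 51.9, 36.6 and 34.3 in ISVZ, 40.9, 39.6 and 30.7 in OSVZ, and 20.3, 21.8 and 23.4 in CP. Its entry (TSDBGID.24608) lies at positions 37598987 to 37696135 of chromosome 8. All 3 CP libraries lay below all 9 germinal ones, with CP 3 (23.4) nearest to VZ 2 (24.6). LRP8 was lower in CP than in ISVZ by -0.85 ± 0.20 (adjusted p = 0.00433, ratio of means 0.534) and this call was kept in all 22 alternatives. It was also lower in CP than in OSVZ by -0.73 ± 0.20 (adjusted p = 0.0165), a call lost without the filter on low values (0.0653) and without OSVZ 1 (0.0626), OSVZ 2 (0.0572) or CP 1 (0.0526). Against VZ the difference of -0.43 ± 0.20 did not pass (adjusted p = 0.0857). It passed in 4 of 22 alternatives, among them without VZ 2 (0.0483) and on the values as deposited (0.0323). The means ran from ISVZ (40.9 ± 9.55) over OSVZ (37.0 ± 5.56) and VZ (30.4 ± 8.10) to CP (21.9 ± 1.55), and no difference among the 3 germinal layers passed (adjusted p of 0.232 to 0.784).

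VLDLR, the receptor linked to stopping migration at the marginal zone, was at 2.89, 4.54 and 4.17 in VZ, 3.30, 3.56 and 3.59 in ISVZ, 5.11, 3.76 and 4.67 in OSVZ, and 9.25, 5.71 and 7.97 in CP. Its entry (TSDBGID.14325) lies at positions 153942507 to 153988209 of chromosome 2. Every CP library lay above every germinal library. VLDLR was higher in CP than in VZ by 0.82 ± 0.18 (adjusted p = 0.00226) and than in ISVZ by 0.93 ± 0.18 (adjusted p = 0.00143), with ratios of means of 1.98 and 2.19, and both calls were kept in all 22 alternatives. The difference from OSVZ, 0.64 ± 0.18 (adjusted p = 0.0193), was lost without the filter (0.064) and without OSVZ 2 (0.0752), CP 1 (0.0736) or CP 3 (0.0537). The germinal layers did not differ from each other beyond their spread in VLDLR (adjusted p of 0.404 to 0.792).

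An entry named as antisense to VLDLR, VLDLR-AS-2, overlaps it and had the same direction. That entry was at 2.67 to 8.05 in the germinal layers and 12.3 to 20.1 in CP, and was higher in CP than in VZ by 1.76 ± 0.22 (adjusted p = 4.8e-05). Since the use of strand is not given in the sources used here, reads of VLDLR and of its antisense entry cannot be told apart, and the VLDLR values are uncertain to that extent. LRP8 overlaps smaller entries, among them MAGOHli3, which reached 4.02 with a mean of 3.01, and MAGOH-AS-2, which reached 5.21 with a mean of 0.462.

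Set against each other per length, LRP8 exceeded VLDLR in all 12 libraries, by less in CP. The ratio of LRP8 to VLDLR was 8.55 ± 4.54 in VZ, 11.8 ± 3.38 in ISVZ, 8.36 ± 2.01 in OSVZ and 2.99 ± 0.808 in the plate. Its 3 libraries ranged from 2.20 to 3.81, and the lowest germinal library was VZ 2, at 5.43. This ratio was formed after the values were seen and carries no test.

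DAB1 showed the largest difference of the 5 genes in the fit. The adaptor was at 5.94, 7.10 and 9.83 in VZ, 4.64, 2.08 and 3.14 in ISVZ, 8.36, 8.05 and 5.68 in OSVZ, and 35.1, 38.8 and 56.2 in CP. Its entry (TSDBGID.24589) spans positions 32915831 to 34191737 of chromosome 8, and no overlapping entry reached 1 in any library. CP lay far above all germinal libraries, and ISVZ lay below all others. DAB1 was higher in CP than in VZ by 2.36 ± 0.25 (adjusted p = 1.47e-05, ratio of means 5.69), than in OSVZ by 2.39 ± 0.25 (adjusted p = 5.9e-05) and than in ISVZ by 3.38 ± 0.25 (adjusted p = 2.29e-06, ratio 13.2), each in all 22 alternatives.

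At the other end of its range, DAB1 was lower in ISVZ than in VZ by -1.03 ± 0.25 (limma, adjusted p = 0.0293), which was kept in 16 of 22 alternatives. The call was lost on leaving out VZ 2 (adjusted p = 0.092), VZ 3 (0.116), ISVZ 2 (0.124) or ISVZ 3 (0.064). It was also lost without the filter on low values (0.111) and without OSVZ 3 and VZ 2 together (0.0868). The difference of OSVZ from ISVZ, 0.99 ± 0.25, did not pass, although the libraries did not overlap (adjusted p = 0.0675). VZ and OSVZ did not differ beyond their spread (-0.03 ± 0.25, adjusted p = 0.937). The order of the means was thus CP (43.4 ± 11.3), then VZ (7.62 ± 2.00) and OSVZ (7.36 ± 1.46) together, then ISVZ (3.29 ± 1.29).

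**Figure D3:**
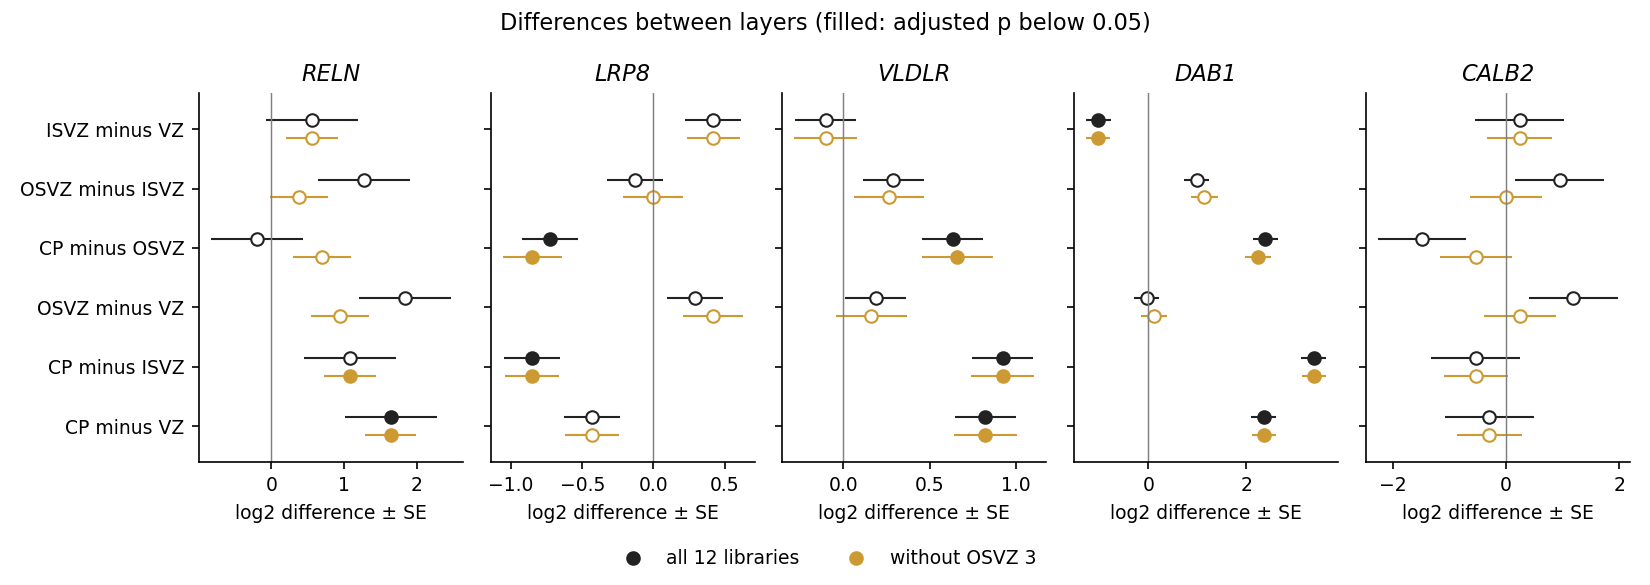
Log2 differences between layers with their SE for the 5 genes in the fit, over all 12 libraries (black) and without OSVZ 3 (yellow); filled points have an adjusted p below 0.05. The DAB1 and VLDLR differences of CP hold their place in both, while RELN in CP against OSVZ moves from -0.20 to 0.70.

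By comparison, CP against VZ called 3 of the 5 genes in the fit (DAB1, RELN and VLDLR), all 3 higher in CP, where 52.6% of the genes tested passed, 23.9% higher and 28.7% lower in CP. CP against ISVZ called DAB1 and VLDLR as higher and LRP8 as lower, with 45.9% of the genes called, 21.6% higher and 24.2% lower. CP against OSVZ called DAB1, VLDLR and LRP8 in those directions, with 31.0% of genes called, 13.7% higher and 17.3% lower. ISVZ against VZ called DAB1 alone, as lower, where 8.72% of genes passed and 7.18% were lower. OSVZ against VZ and OSVZ against ISVZ called 0 of the 5 by limma, where 27.9% and 0.603% of genes passed. Each of these comparisons had 1 of the 5 at an unadjusted p below 0.05, RELN against VZ and DAB1 against ISVZ. In the comparisons with CP, a call is thus common among all genes.

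Without OSVZ 3, RELN joined DAB1, VLDLR and LRP8 in the test over the 4 layers, so 4 of the 5 genes passed, against 52.2% of all genes tested. CP against ISVZ then also called 4, RELN as higher (46.8% of genes), while CP against VZ still called RELN, DAB1 and VLDLR (53.5%) and CP against OSVZ still called DAB1, VLDLR and LRP8 (30.9%). ISVZ against VZ called DAB1 (9.84%), and OSVZ against VZ and OSVZ against ISVZ called 0 of the 5 by limma (22.8% and 0.0215%), with RELN and DAB1 again the 1 gene each at an unadjusted p below 0.05.

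CALB2 encodes calretinin, a calcium-binding protein of Cajal-Retzius cells and of a class of interneurons. It was at 2.88, 5.08 and 2.95 in VZ, 2.46, 4.75 and 6.67 in ISVZ, 3.50, 5.36 and 37.5 in OSVZ, and 1.41, 10.0 and 0.883 in CP. The layers overlapped in every comparison, and OSVZ 3 was 3.74-fold above the next highest library, CP 2. The entry (TSDBGID.15601) lies at positions 13444294 to 13476272 of chromosome 22. No comparison passed for CALB2 over the 12 libraries: the adjusted p was 0.381 over the 4 layers, and the largest difference, CP against OSVZ, was -1.49 ± 0.79 (adjusted p = 0.175) with OSVZ 3 and -0.54 ± 0.64 (adjusted p = 0.558) without it. Without CP 2, the same difference was -2.28 and passed (adjusted p = 0.0493). In CP alone its libraries spanned from 0.883 to 10.0, with a mean of 4.10 ± 5.13.

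TP73, which encodes the p53 relative p73 and marks hem-derived Cajal-Retzius cells, had 2 libraries above 1. It was at 0.410, 2.19 and 0.821 in VZ, 0.240, 0.203 and 0.160 in ISVZ, 0.271, 0.270 and 3.48 in OSVZ, and 0.315, 0.486 and 0.331 in CP. The 2 libraries that stood out were OSVZ 3 and VZ 2, the latter being the library with the highest hem genes, WNT3A at 0.467 and BMP4 at 8.86 among them, and with TTR at 2514. FOXJ1 was also highest in VZ 2, at 43.4, with 11.3 in VZ 1, 20.0 in VZ 3 and 0.449 in OSVZ 3. The part of any cell type in the TP73 values was not tested. The deposited lower bound of TP73 was 3.31 in OSVZ 3 and 1.98 in VZ 2, and at most 0.724 in the others, all 12 bounds lying above 0. TP73 (TSDBGID.7520, positions 71411603 to 71476994 of chromosome 13) overlaps no other entry.

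An exact permutation test of the F statistic of TP73 gave p = 0.320 (0.515 adjusted over the 3 genes so tested). It covered the 369600 ways of placing the 12 libraries in layers. Without OSVZ 3, over 92400 such placements, the exact permutation p was 0.0376, and 0.104 adjusted over the 3 genes. In that set the VZ mean was 1.14 ± 0.931, against 0.201 ± 0.0402 in ISVZ, 0.270 in both remaining OSVZ libraries and 0.377 ± 0.0941 in CP. VZ 1 (0.410) lay within the CP range, so VZ and CP overlapped.

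NDNF encodes a secreted neurotrophic factor found in Cajal-Retzius cells and in interneurons near the surface. It was at 3.94 in OSVZ 3 and no higher than 0.546 in any other library. By library it was 0.0367, 0.140 and 0.462 in VZ, 0.376, 0.0427 and 0.0285 in ISVZ, listed at 0 and at 0.0421 in OSVZ 1 and OSVZ 2, and at 0.543, 0.546 and 0.170 in CP. Of the 12 deposited lower bounds of NDNF, 6 were above 0, those of the 3 CP libraries among them. The exact permutation test over the layers gave p = 0.886 with all libraries and p = 0.201 without OSVZ 3. Its entry (TSDBGID.877, positions 12329178 to 12366152 of chromosome 26) overlaps another entry, so reads could have been divided between them.

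LHX5, a transcription factor of the hem and of Cajal-Retzius cells, was the lowest of the 8. It was at 2.42 in OSVZ 3, which was 12.3-fold above the next highest library, VZ 3 at 0.197. VZ 1 and VZ 2 were at 0.0534 and 0.120, ISVZ 1 and ISVZ 3 were listed at 0 with ISVZ 2 at 0.0259, OSVZ 1 and OSVZ 2 were at 0.0565 and 0.0738, and CP ran from 0.0313 to 0.0985. The deposited lower bound was above 0 in 4 of 12 libraries, and was 2.19 in OSVZ 3 and at most 0.104 elsewhere. The exact permutation p was 0.343 with all libraries and 0.0690 without OSVZ 3. The entry (TSDBGID.16271) lies at positions 4664132 to 4673765 of chromosome 23.

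Other Cajal-Retzius genes gave no single direction. Of 12 listed, 8 were tested. Of these, 2 were higher and 2 lower in CP than in VZ, where 23.9% of all genes tested were higher and 28.7% lower. The median log2 difference was -0.72 against -0.06 over all genes. The 2 higher ones are also expressed by plate neurons: CALB1, calbindin, went from 1.47 ± 0.290 in VZ to 17.5 ± 8.49 in CP (log2 difference 2.82 ± 0.37, adjusted p = 6.26e-05), and TBR1, a transcription factor of deep-layer neurons, from 7.22 ± 3.81 to 26.9 ± 9.21 (1.83 ± 0.31, adjusted p = 0.000464). The lower ones were CXCR4, the receptor for the chemokine CXCL12 that guides both Cajal-Retzius cells and interneurons (65.8 ± 18.3 to 22.6 ± 13.0, adjusted p = 0.0139), and EBF1 (2.31 ± 1.27 to 0.247 ± 0.0829, adjusted p = 0.0118). EBF1 had its highest layer in ISVZ, at 6.37 ± 2.25. LHX1, EBF2, EBF3 and NHLH2 were below the filter; NHLH2 was at 4.65 and LHX1 at 1.03 in OSVZ 3, and at most 0.953 and 0.105 in the other libraries.

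Of the 11 genes of the hem and other source regions, 5 were tested, and 4 were lower in CP than in VZ (DMRT3, BMP4, BMP7 and WNT5A), with a median difference of -1.50. The fifth, RSPO3, a secreted Wnt enhancer, was at 15.2, 5.43 and 8.63 in CP and 1.64, 14.3 and 3.32 in VZ (0.84 ± 0.59, adjusted p = 0.258). BMP4 was at 4.39 ± 3.87 in VZ and 0.340 ± 0.426 in CP. The 4 lower genes were each highest in VZ 2. BMP4, BMP7 and DMRT3 reached 1 in VZ libraries only, so they entered the fit through the layer where they were high. Their direction was thus set by the filter, and the count and median carry no weight as a test. Of all genes tested, 28.7% were lower in CP than in VZ. With OSVZ 3 and VZ 2 both left out, 2 of the 5 tested genes reached the filter. Of these, WNT5A was lower (-1.09, adjusted p = 0.00803) and RSPO3 higher in CP (1.56, adjusted p = 0.0136).

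Further along the pathway, the genes of each step were counted from lists, and the count is set against the 52.6% of all genes called in CP against VZ. Among the proteases that cleave reelin, 3 of 7 were tested. ADAMTS3, the main reelin-cleaving metalloprotease, went from 2.36 ± 0.226 in VZ to 5.73 ± 2.78 in CP (0.93 ± 0.26, adjusted p = 0.00989), with CP 1 the highest at 8.92. PLAT, tissue plasminogen activator, which can also cut reelin, fell from 24.7 ± 6.71 to 1.66 ± 0.303 (-3.25 ± 0.23, adjusted p = 7.91e-07). FURIN, the convertase that activates such proteases, was at 5.63 ± 0.602 in VZ and 4.93 ± 0.534 in CP (adjusted p = 0.337).

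Of the other lipoprotein receptors of the same family, their ligands and turnover factors, 12 of 14 were tested; 8 were lower and 1 higher in CP than in VZ, with a median of -0.80. Ligands that share LRP8 and VLDLR with reelin were among those lower in CP. APOE, the main lipid carrier of the brain, was at 261 ± 146 in VZ and 7.39 ± 7.62 in CP (-5.24 ± 0.67, adjusted p = 5.9e-05), CLU, clusterin, at 188 ± 71.3 and 30.6 ± 7.56 (-2.54 ± 0.33), and THBS1, thrombospondin 1, at 11.4 ± 3.18 and 1.51 ± 0.513 (-2.29 ± 0.23). APOE and CLU were both highest in VZ 2. The receptor LRP4 fell from 5.54 ± 0.905 to 0.256 ± 0.0312. LRP1B was the only member of that list higher in CP, by 1.62. Without OSVZ 3, 6 of the 12 were lower, and LRP1 was among those that no longer passed (adjusted p = 0.0544). Radial glia markers moved with this list, 8 of 8 being lower in CP with a median of -3.97; their part in it was not tested.

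Among the kinases that phosphorylate DAB1, the factors that remove it and DAB2IP, the differences of those that passed were smaller than for DAB1 itself. They lay between -0.87 and 0.42. Of 7 tested, 2 were higher and 1 lower in CP than in VZ, with a median of 0.29. The kinase SRC was at 14.6 ± 3.09 in VZ, 24.0 ± 0.844 in OSVZ and 18.1 ± 2.99 in CP, and passed in OSVZ against VZ (0.70, adjusted p = 0.0145), but not with OSVZ 3 and VZ 2 both left out (0.54, adjusted p = 0.130). Of the 7, 4 passed as higher in OSVZ than in VZ with all libraries, where 27.9% of all genes tested passed. Without OSVZ 3 it was 3, where 22.8% passed. Without both libraries 0 of the 7 passed (limma, with 4 of the 7 at an unadjusted p below 0.05, 3 of them higher). All genes called in that comparison then came to 1976, against 3935 with all libraries. SOCS7, which delivers phosphorylated DAB1 to its ubiquitin ligase, went from 8.70 ± 0.822 to 11.9 ± 1.39 in CP (0.41 ± 0.13, adjusted p = 0.0224), and DAB2IP from 9.83 ± 1.22 to 13.4 ± 0.938. CUL5, the ligase scaffold, was at 7.20 ± 0.336 and 8.38 ± 1.59 (adjusted p = 0.263). RNF7, its ring subunit, is uncertain, since a copy, RNF7li1, was at 9.03 on average where RNF7 itself was no higher than 1.81. With OSVZ 3 and VZ 2 both left out, RNF7 alone of the 7 passed (-0.87, adjusted p = 0.00428), and SOCS7 and DAB2IP did not (0.35 and 0.34, adjusted p = 0.0907 and 0.0597).

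In the Crk and Rap1 branch, which acts on adhesion, 5 of 7 genes were tested, and the related adaptors CRK and CRKL went opposite ways. CRK rose from 22.9 ± 1.51 in VZ to 31.4 ± 2.30 in CP (0.43 ± 0.10, adjusted p = 0.00347), and CRKL fell from 34.8 ± 0.217 to 19.0 ± 1.11 (-0.84 ± 0.09, adjusted p = 1.3e-05). RAP1B, the small GTPase, was at 37.6 ± 2.59 in VZ, 27.3 ± 2.42 in ISVZ, 29.1 ± 3.44 in OSVZ and 40.7 ± 2.93 in CP, and was higher in CP than in OSVZ (adjusted p = 0.00819). In the phosphoinositide 3-kinase branch all 11 genes were tested, with 4 higher and 3 lower in CP than in VZ and a median of 0.29. The regulatory subunit PIK3R1 went from 6.89 ± 1.60 to 19.3 ± 2.54 (1.37 ± 0.33, adjusted p = 0.0041). The kinase AKT2 fell from 7.67 ± 0.663 to 1.85 ± 0.157 (-1.60 ± 0.11, adjusted p = 4.58e-07). GSK3B, a kinase that Akt inhibits, was higher in CP (0.65 ± 0.16, adjusted p = 0.00531) and in OSVZ (0.73, adjusted p = 0.00616) than in VZ.

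Of the adhesion molecules downstream of reelin, 7 of 8 were tested. Over the 12 libraries 4 were lower than in VZ and 0 higher: ITGB1, integrin beta 1, at 91.6 ± 6.10 and 23.2 ± 2.61 (-1.94 ± 0.12, adjusted p = 2.63e-07), EFNB1 at 21.7 ± 2.20 and 4.76 ± 0.951 (-1.99 ± 0.16), EFNB2 at 42.2 ± 13.5 and 22.5 ± 5.69, and ITGA5 at 1.50 ± 0.377 and 0.489 ± 0.0887. CDH2, N-cadherin, was at 52.5 ± 5.10 in VZ and 46.6 ± 8.43 in CP (adjusted p = 0.495). EFNB3 was at 11.1 ± 0.654 and 16.0 ± 2.95 and did not pass over the 12 libraries (0.48 ± 0.20, adjusted p = 0.0690), but it was higher in CP without OSVZ 3 (0.48, adjusted p = 0.0168) and without OSVZ 3 and VZ 2 (0.52, adjusted p = 0.0291). The radial glia markers, which these layers lose toward CP, moved with this list: 8 of 8 were lower in CP, and SOX2, for one, went from 157 ± 1.08 to 5.74 ± 1.58. Their part in these differences was not tested.

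The partners at the microtubules all passed upward or not at all. Of 7 tested of 10, 6 were higher in CP than in VZ and 0 lower, with a median of 0.94. MAP1B, a microtubule-associated protein that reelin signalling phosphorylates, rose from 157 ± 2.78 to 471 ± 72.5 (1.57 ± 0.17, adjusted p = 1.43e-05). NDEL1, a dynein regulator, rose from 6.22 ± 0.627 to 18.6 ± 0.278 (1.45 ± 0.12, adjusted p = 2.33e-06), and CDK5R1, the activator p35 of the kinase Cdk5, from 52.7 ± 7.67 to 128 ± 8.67 (1.27 ± 0.13, adjusted p = 8.64e-06). PAFAH1B2, a catalytic partner of Lis1, went from 46.9 ± 0.938 to 91.1 ± 10.2. PAFAH1B1, the Lis1 gene itself, was listed at or near 0 under its own symbol, while a copy entry, PAFAH1B1li1, was at 35.7 on average, so the level of Lis1 is uncertain. Cortical plate neuron markers moved the same way (6 of 10 higher in CP, 0 lower); their part in these differences was not tested.

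**Figure D4:**
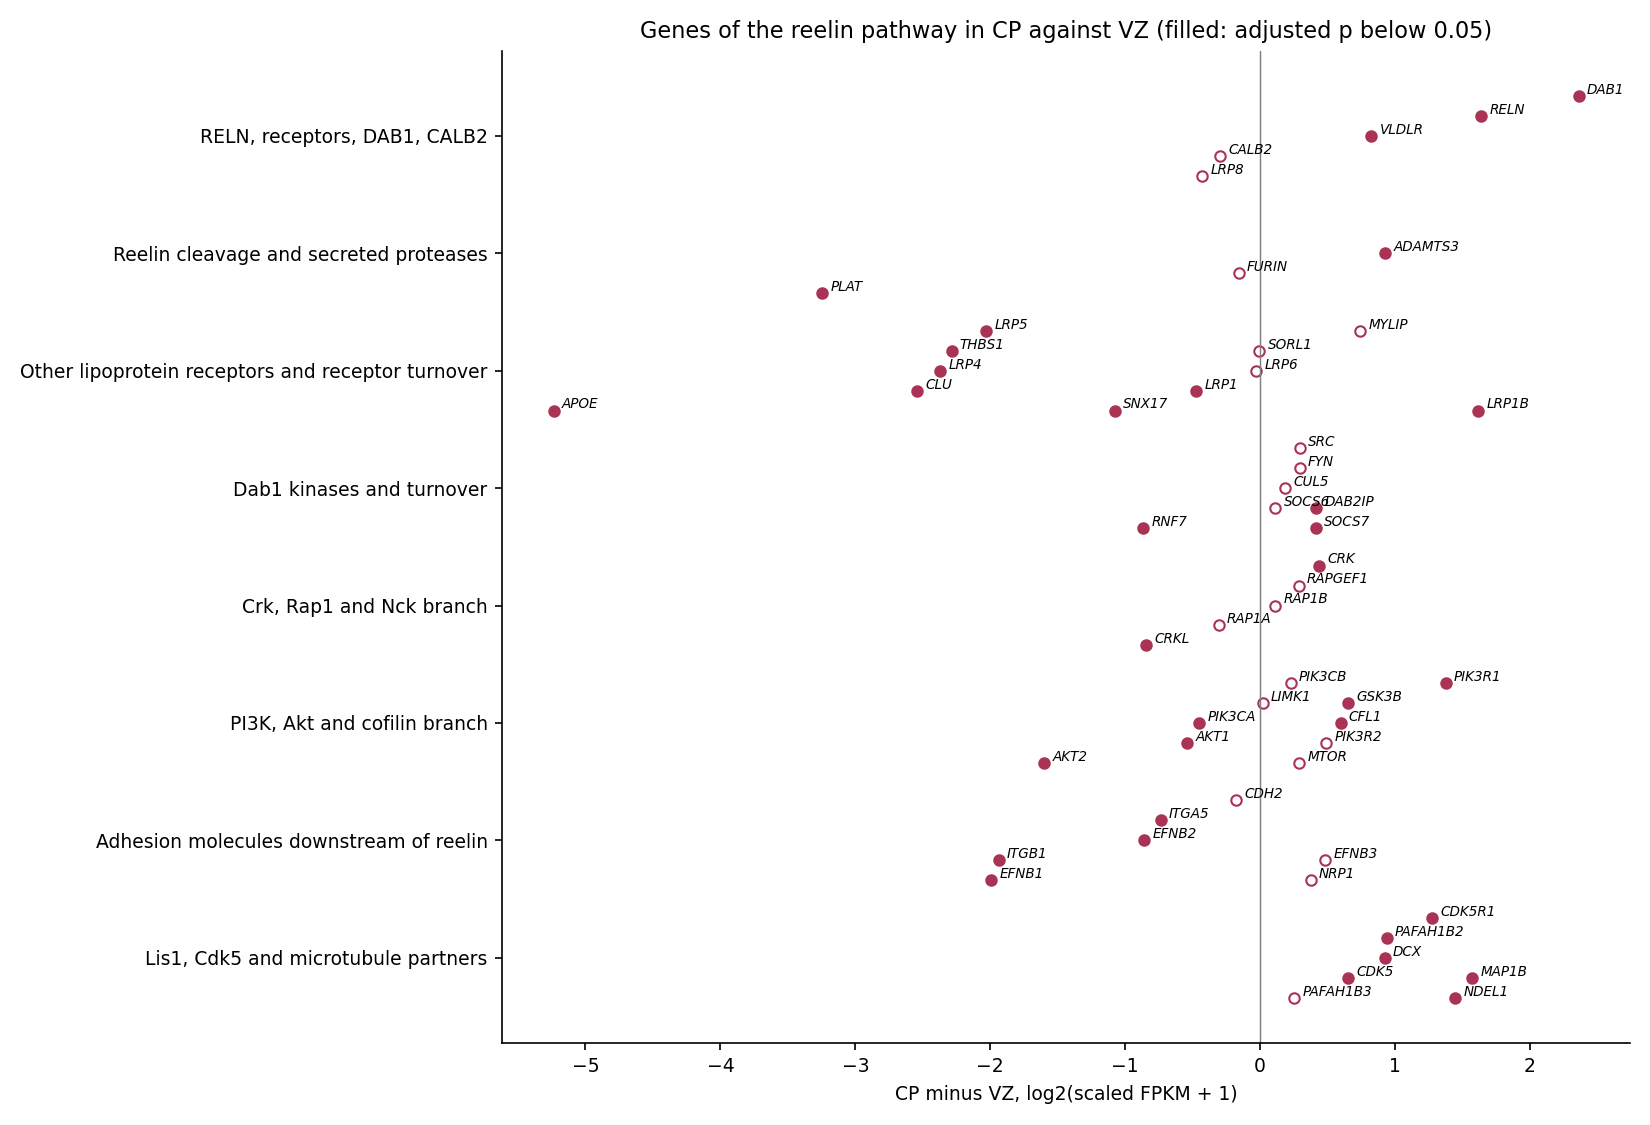
CP minus VZ differences on the log2(scaled FPKM + 1) scale for the tested genes of the pathway that are reported here, 1 row per list; filled points have an adjusted p below 0.05. DAB1 at 2.36 lies farthest to the right, the microtubule partners all lie above 0, and APOE at -5.24 lies farthest to the left.

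Genes of other cell types that the dissections could hold were followed in the same way, beside the same 52.6% of all genes called in CP against VZ. Of 15 interneuron genes, 10 were lower and 1 higher in CP than in VZ, with a median of -2.15; SP9 went from 42.2 ± 8.96 to 2.25 ± 0.775 and DLX5 from 42.3 ± 10.3 to 2.42 ± 1.05. SST, somatostatin, was at 152 in OSVZ 3 and at most 48.6 elsewhere. Of 6 meningeal genes tested, LUM alone passed in CP against VZ, at 2.23 ± 1.98 and 14.6 ± 2.15 (2.43 ± 0.35, adjusted p = 0.000129), and 0.369 ± 0.316 in ISVZ. The summed level of 6 meningeal markers was 14.9 to 21.5 in CP, 4.52 to 15.5 in VZ and 2.38 to 3.88 in ISVZ and OSVZ. Of 8 subplate genes, 3 were lower in CP than in VZ and 0 higher. The intermediate progenitor gene EOMES was at 44.1 ± 9.51 in OSVZ and 0.231 ± 0.123 in CP.

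The genes whose levels ran most like each of the 5 in the fit were found by Pearson r of log2(scaled FPKM + 1) over the 12 libraries, among 10559 plain symbols. These are descriptions over libraries that share layer, depth and dissection, and carry no test. DAB1 was nearest to DYRK2 (r = 0.980), SC5D (0.979) and ACACA (0.978), and DYRK2, a protein kinase gene, was at 23.8 on average in CP and 8.02 in ISVZ. VLDLR was nearest to MPP6 (0.944), GPR63 (0.941) and GRM3 (0.939), a glutamate receptor gene at 36.8 in CP and 5.59 in ISVZ. LRP8 was nearest to TRIB1 (0.953), C1ORF109 (0.951) and MTUS1 (0.948), the last at 26.0 in ISVZ and 6.12 in CP.

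RELN was nearest to GABRG3 (0.950), FLYWCH1 (0.945) and RAP1GAP (0.944) with all libraries. Over the 11 libraries without OSVZ 3 the nearest were FAM131A (0.939), SH3GLB2 (0.922) and TTC13 (0.922), so none of the 3 nearest genes was shared. CALB2 was nearest to PCDH18 (0.892), ECEL1 (0.887) and CEND1 (0.883), and without OSVZ 3 to MPV17 (0.880), NDUFA13 (0.870) and COASY (0.859). Among the 5 genes themselves, DAB1 and VLDLR had an r of 0.854, LRP8 had -0.772 with VLDLR and -0.731 with DAB1, and RELN had 0.608 with CALB2, which was 0.0627 without OSVZ 3.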

How the data were processed

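Gene expression was measured by poly(A) RNA sequencing of laser-captured layers, 4 layers with 3 libraries each. The authors deposited 1 table per library of FPKM with lower and upper bounds per gene, in the Cufflinks layout per the file headers. The submitters' processing notes name HISAT2 and Cufflinks, with versions, genome build, annotation and strandedness not given in the sources used here. Positions are those of the deposited tables. The names of the tables carry another embryonic day than the labels, and the labels were followed. No sequence table was used.

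Entries sharing an ID (360 IDs) were summed and 4 IDs with a failed status left out. Each library was scaled by the median of its ratios over the 10200 genes that reached 1 FPKM in every library (factors 0.947 to 1.06). Genes that reached 1 in 3 libraries or more (14101) entered 1 limma 3.58.1 model (R 4.3.3) over the 4 layers, on log2(scaled FPKM + 1). It used empirical Bayes moderation along the intensity trend (8 residual degrees of freedom). An F test and 6 two-sided pairwise comparisons each had Benjamini-Hochberg adjustment at 0.05. The fit was tested on simulated data. TP73, NDNF and LHX5, below that filter, had an exact permutation test. Ratios of means are of scaled FPKM.

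The 8 genes and all lists were chosen with earlier results of these data known. Named genes follow a rule: the 8 genes, entries overlapping them, the 4 passing genes of each list with the largest CP minus VZ difference and the 2 most abundant that did not pass, and the 3 genes nearest by correlation; others are named as members of a count or as chosen after their values were seen. CTGF, SLC6A13 and NEUROG2 were not found by symbol. Some genes of the rule are not reported here, though counts over a list include them. Alternatives covered the pseudocount, filter, scaling, replicate number, trend and each library left out.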

Additional observations from a re-analysis of the deposited data

How the results depend on the processing

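Over 53 results, 1142 alternative values were computed: 1035 kept their direction and side of the threshold or moved little, 46 counts moved by over 1.5 times, 28 values lost a call, 20 gained one and 13 changed sign. Genes called in ISVZ against VZ (1229) came to 787 with no filter, 715 with a filter of 5, and 396 without OSVZ 3 and VZ 2 together, a choice made after seeing the data. Those in OSVZ against ISVZ (85) came to 19 with a pseudocount of 0.1, 8 with no filter, 299 with a filter of 5, 54 on FPKM as deposited, 38 with equal totals, 156 with quantile normalisation and 5 without both libraries. OSVZ against VZ (3935) came to 1976 without both.

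Of the 8 genes, 0 were called in ISVZ against VZ with no filter and without both libraries, 1 in CP against OSVZ with no filter, and 1 (RELN) in OSVZ against VZ with pseudocounts of 0.1 and 0.5, a filter of 5 and quantile normalisation. With no filter, more genes share the adjustment; the cause of the other changes was not tested.

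Leaving out each library in turn, genes called ranged from 6280 to 7291 over the 4 layers, 403 to 1374 in ISVZ against VZ, 2 to 556 in OSVZ against ISVZ, 3100 to 4397 in CP against OSVZ, 2578 to 3981 in OSVZ against VZ, 5264 to 6535 in CP against ISVZ and 6453 to 7469 in CP against VZ. The count among the 8 genes ranged, in the same order, from 2 to 4, 0 to 1, 0 to 1, 1 to 4, 0 to 1, 3 to 4 and 2 to 3. For the 3 genes below the filter it was 0 to 0 by the adjusted exact permutation p.

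Differences that changed sign, none of them past the threshold, were RELN in CP against OSVZ (from -0.734 without OSVZ 1 to 0.699 without OSVZ 3, 0.192 without CP 3, 0.697 without both libraries), LRP8 in OSVZ against ISVZ (from -0.241 without ISVZ 3 to 0.0508 without ISVZ 1), VLDLR in ISVZ against VZ (0.0210 with quantile normalisation), and DAB1 in OSVZ against VZ (0.0110 with quantile normalisation, 0.0831 without both, from -0.184 without VZ 1 to 0.139 without VZ 3, 0.117 without OSVZ 3). CALB2 did so in ISVZ against VZ (from -0.0233 without ISVZ 3 to 0.550 without ISVZ 1), OSVZ against ISVZ (-0.00106 without both) and CP against VZ (from -1.09 without CP 2 to 0.192 without CP 3, 0.0111 without CP 1).

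The titles number the libraries 1 to 3 in each layer, without saying that a number marks an animal. Of 18 pairs with the same number, 16 had deviations from the layer means that correlated above 0.1 (0.0629 to 0.425), and 12 of 12 libraries correlated best with their own number, a hint from the data and not from the design. With the replicate number as a block, genes called in OSVZ against ISVZ came to 206, RELN in CP against VZ had an adjusted p of 0.0578, and LRP8 in CP against VZ one of 0.0481.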
